A study of Mus musculus with 8 samples.

Results

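RGFP109, named in the labels as an inhibitor of histone deacetylase 3 (HDAC3) and described in the study as acting on HDAC1 as well, was compared with vehicle in 4 RNA-seq libraries of mouse brain, which are 4 of the 8 libraries in the series. They were chosen by their titles, 2 of mice given RGFP109 and 2 of controls, and were compared within replicate number. Pair 1 holds both libraries labelled cortex and pair 2 both libraries labelled amygdala. All 4 libraries came from C57BL/6 mice with photothrombotic stroke followed by restraint stress (PTS + RS), taken on Day 21. The RGFP109 mice had 60 mg/kg given under the skin once a day for 2 weeks by the labels. Another description gives a longer course that ends after the libraries were taken, so the dosing they had received is not settled. It was dissolved in DMSO and diluted in hydroxypropyl-β-cyclodextrin with sodium acetate. The controls are titled NaCl in the labels and called vehicle in the study, and whether they had the same solvent was not stated. The other 4 libraries are of the PTS + RS and RS (restraint stress alone) groups, labelled cortex. The age of these mice was not stated for the libraries. Whether a library is 1 mouse or a pool was not stated, so the spread between libraries may include technical spread.

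HDAC3 removes acetyl groups from histones and other proteins and works in corepressor complexes such as that of NCoR1, where it holds genes down. Its catalytic activity depends on binding to such a complex. In macrophages and microglia HDAC3 is known both for silencing genes and for being needed by part of the inflammatory response. The comparison asks which brain transcripts differ when these enzymes are inhibited in a brain with a cortical lesion and stress.

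The shallowest library had 16134754 gene counts and the deepest 21712033, of which 3.59% to 4.14% were on mitochondrial genes. Of 28229 genes with a count, 15860 had 10 or more counts in every library and were tested. The members just inside this limit include Nlrp1b with 10, 11, 10 and 14 counts (RGFP109 replicates 1 and 2, then vehicle replicates 1 and 2). Just outside it was Ptger2, the prostaglandin E2 receptor EP2, with 3, 6, 24 and 11 counts.

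The tissue labels were checked against brain region markers before the comparison. The library labelled vehicle replicate 1, cortex, held olfactory bulb markers. Cdhr1, a photoreceptor-type cadherin of mitral cells, was at 534 CPM (counts scaled to a common library size with TMM factors) there and at 8.88, 5.68 and 8.89 CPM in RGFP109 replicates 1 and 2 and vehicle replicate 2. S100a5 had 1131 counts in it and 0 in each of the other 3 libraries. Summed over the 10 listed olfactory bulb genes, vehicle replicate 1 had 1946.7 CPM against 132.7 to 156.2 CPM in the others. Fezf2, a transcription factor of cortical projection neurons, was at 4.09 CPM in it, against at least 35.4 CPM in the others. The interneuron enzyme Gad1 was at 1571 CPM in it and at 317 to 348 CPM elsewhere. The library labelled RGFP109 replicate 1, cortex, held markers of hippocampus and choroid plexus. Prox1, of dentate granule cells, was at 90.2 CPM there against 8.76 to 16.5 CPM, and Ttr, the transthyretin of choroid plexus, at 1348 CPM against 1.36 to 1.88 CPM. Both libraries labelled amygdala had the higher sums of cortical and striatal markers, with Fezf2 at 35.4 and 40.9 CPM and the dopamine receptor Drd1 at 49.4 and 49.2 CPM. The 10 cortical genes summed to 1475.1 and 1249.0 CPM in them and to 701.8 and 817.7 CPM in pair 1. The 10 amygdala markers summed to 218.6 and 228.3 CPM in the libraries labelled amygdala, to 163.8 CPM in RGFP109 replicate 1 and to 661.4 CPM in vehicle replicate 1, where Meis2 alone gave 627.4 CPM. Without Meis2 the sums were 73.9 and 79.9 CPM in the libraries labelled amygdala and 101.6 and 34.0 CPM in those of pair 1. Prkcd (18.03 and 21.98 CPM), Cyp26b1 (19.9 and 19.4 CPM) and Tac2 (4.88 and 6.55 CPM) were highest in the libraries labelled amygdala. Rspo2, Dlk1 and Nts were instead highest in RGFP109 replicate 1, at 41.0, 16.8 and 4.76 CPM. Like Meis2, Gal was highest in vehicle replicate 1, at 4.78 CPM, and Ucn3 was near 0 in every library. Pair 1 therefore sets 2 libraries of unlike region markers against each other, and treatment and region cannot be told apart in it, so results are also given for pair 2 alone.

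**Figure D1:**
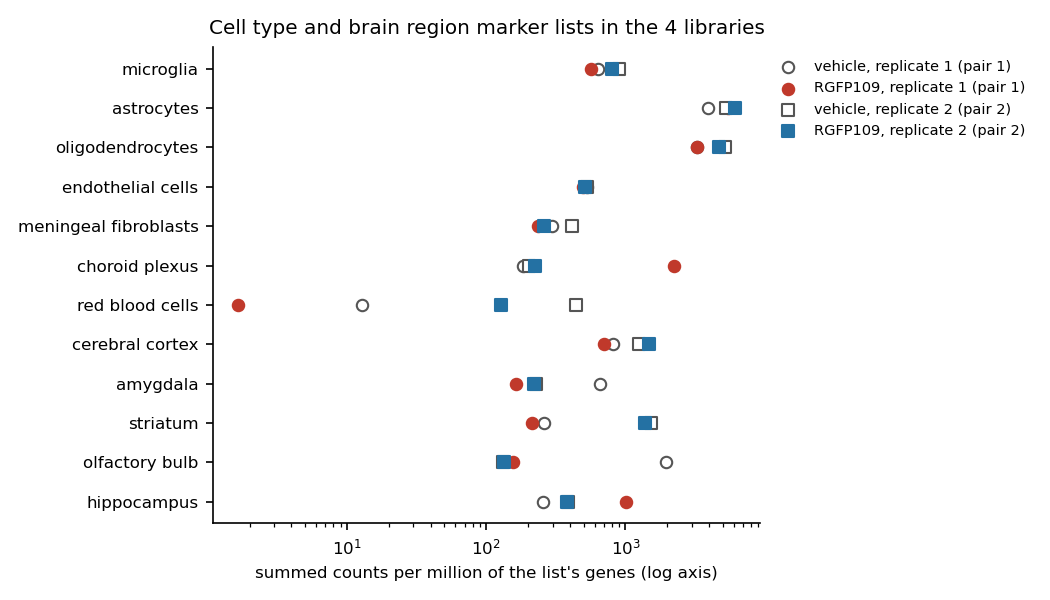
Summed CPM (log axis) of cell type and brain region marker lists in the 4 libraries, with circles for pair 1, squares for pair 2, filled symbols for RGFP109 and open ones for vehicle. Vehicle replicate 1 stands apart in the olfactory bulb list (1946.7 CPM) and RGFP109 replicate 1 in the choroid plexus list (2236.5 CPM), whereas in pair 2 the widest gaps among the lists plotted are those of red blood cells (127.4 and 439.5 CPM) and meningeal fibroblasts (258.5 and 414.4 CPM).

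With the replicate number as a block, no gene passed the test for RGFP109 against vehicle. At an adjusted p under 0.05 and a change of 2-fold or more, 0 of 15860 genes (0%) were higher and 0 (0%) were lower by edgeR's quasi-likelihood test, and the adjusted p was 1 for every gene. At an unadjusted p under 0.05 there were 102 genes higher and 152 lower. DESeq2 with the block called 0 higher and 4 lower, which were Ltbp2, Gpnmb, Hbb-bs and Hba-a1, and limma-voom called 0 and 0. The 4 libraries gave 1 residual degree of freedom and a biological coefficient of variation of 24.5%. Without vehicle replicate 2 and without the block, 26 genes were lower, among them Cdhr1, when the library with the olfactory bulb markers was the only control.

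The genes did not move together across the pairs. In 3647 genes (23%) the RGFP109 library was above its vehicle library in both pairs, and in 4000 genes (25.2%) it was below in both. The other 8213 genes (51.8%) moved apart. As a description across genes, which share libraries and are not independent replicates, the log2 ratios of the pairs correlated at 0.014. Pair 1 was the wider one. Its log2 ratios had an SD of 0.74 over genes and 1909 of them were 1 or more in size, whereas the SD was 0.30 in pair 2 and 159 were that large. Libraries resembled each other accordingly, with a correlation of log CPM of 0.992 within pair 2 and 0.949 within pair 1. RGFP109 replicate 1 correlated at 0.971 with vehicle replicate 2, more closely than with its own control.

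**Figure D2:**
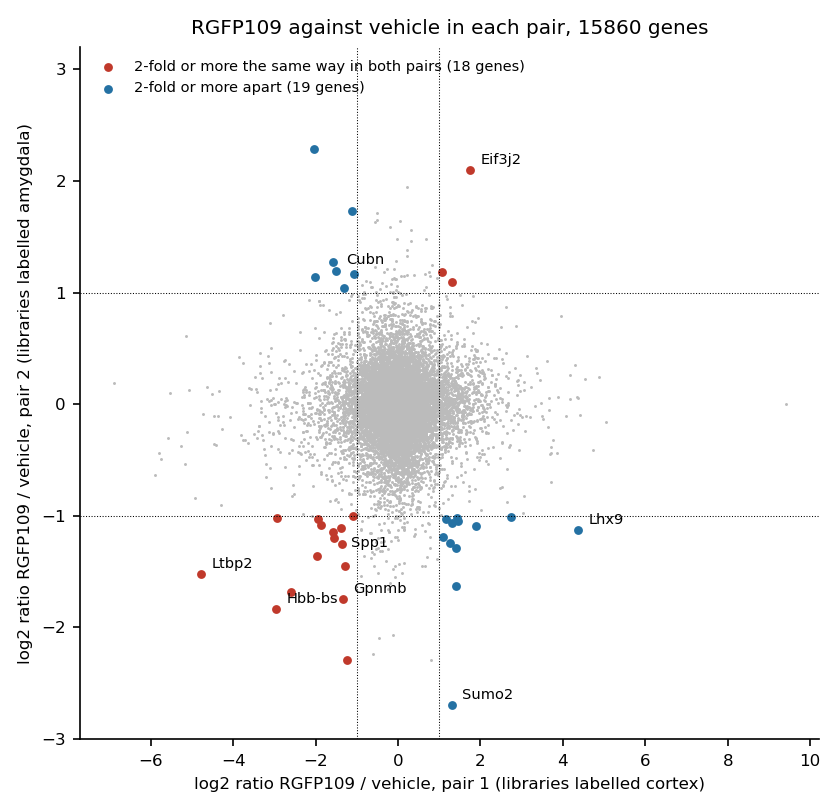
Log2 ratio of RGFP109 over vehicle in pair 1 (horizontal axis) and pair 2 (vertical axis) for 15860 genes, with dotted lines at 2-fold. The cloud is wider along pair 1 (SD 0.74) than along pair 2 (SD 0.30), and 18 genes are past 2-fold in the same direction in both pairs (red) against 19 in opposite directions (blue).

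A ratio of 2-fold or more the same way in both pairs was found for 18 genes, 3 higher (0.0189%) and 15 lower (0.0946%). A further 13 genes moved the same way with the smaller log2 ratio between 0.9 and 1. Each ratio is 1 library over 1, so these are descriptions, and none of these genes passed the blocked test. In bulk tissue, fewer cells of a type and less RNA per cell cannot be told apart.

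The lower genes included 3 that phagocytes with a heavy lipid load are known to express, picked from genes selected for being lower in both pairs. Other phagocyte genes went other ways. In the disease-associated microglia list below, which holds Gpnmb and Spp1, 10 of 17 tested genes were lower in both pairs. Of the others, 6 were higher in pair 1 and lower in pair 2, among them Lpl at 3.69 and -0.45, and 1 was higher in both. Gpnmb, a membrane glycoprotein of phagocytes, was at 5.33 and 44.9 CPM in RGFP109 replicates 1 and 2 and at 13.6 and 151 CPM in vehicle replicates 1 and 2. Spp1, the secreted phosphoprotein osteopontin, was at 17.3 and 50.1 CPM with RGFP109 and at 45.4 and 108 CPM with vehicle. Plin2, which coats lipid droplets, was at 4.63 and 8.31 CPM with RGFP109 and at 11.997 and 19.9 CPM with vehicle. Each was lower in the RGFP109 library of both pairs, but the RGFP109 library of pair 2 was above the vehicle library of pair 1 for Gpnmb and Spp1, so for these genes the groups overlap when the pairing is ignored. Of the 3 genes, Plin2 alone had both RGFP109 libraries below both vehicle libraries. The share of all genes tested without overlap between the groups was not counted, so nothing is read from a lack of overlap here or below. With the block, the log2 fold change was -1.56 ± 0.21 (SE) for Gpnmb, -1.25 ± 0.20 for Spp1 and -1.31 ± 0.26 for Plin2, each with an adjusted p of 1 by edgeR. Their log2 ratios in pair 2 alone were -1.75, -1.11 and -1.25. The difference between the pairs was 0.40 ± 0.48 for Gpnmb, -0.29 ± 0.62 for Spp1 and -0.11 ± 0.30 for Plin2 in the fit over all 8 libraries. The 3 genes were named for large ratios in the same direction in both pairs. Their small differences between the pairs and their blocked changes follow from that choice and are no separate support.

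The stretches of 250 bases before the start sites of these 3 genes are shown because the genes moved together in both pairs. They are RefSeq promoters of build GRCm38.p6, 5′ to 3′ on the strand of the gene, at chr6:49036268-49036517 (+) for Gpnmb, chr5:104434861-104435110 (+) for the first of 2 listed starts of Spp1 and chr4:86670060-86670309 (-) for Plin2. Capitals mark matches to motifs searched on both strands, and the motifs were chosen after these promoters had been read.
Gpnmb: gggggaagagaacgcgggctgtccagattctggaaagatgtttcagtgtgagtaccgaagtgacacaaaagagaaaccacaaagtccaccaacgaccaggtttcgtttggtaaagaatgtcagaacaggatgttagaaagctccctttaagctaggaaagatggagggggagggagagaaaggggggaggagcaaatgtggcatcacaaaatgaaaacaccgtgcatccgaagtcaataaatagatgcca
Spp1: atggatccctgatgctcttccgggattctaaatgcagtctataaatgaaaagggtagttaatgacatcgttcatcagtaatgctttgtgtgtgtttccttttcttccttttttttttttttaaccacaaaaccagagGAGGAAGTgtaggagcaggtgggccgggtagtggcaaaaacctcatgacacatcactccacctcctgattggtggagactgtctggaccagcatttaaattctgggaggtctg
Plin2: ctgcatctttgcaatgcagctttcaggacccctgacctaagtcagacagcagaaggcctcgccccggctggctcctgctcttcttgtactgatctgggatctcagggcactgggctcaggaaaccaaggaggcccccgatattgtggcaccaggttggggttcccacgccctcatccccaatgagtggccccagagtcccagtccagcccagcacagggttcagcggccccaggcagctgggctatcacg

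Spp1 held 1 match to GAGGAAGT, a form of the site of the myeloid factor PU.1, starting 113 bases before the start site. This motif was present in 2.44% of 32851 promoters of the same length. The AP-1 motif TGANTCA (6.75% of promoters), the MiT-family E-box TCACGTG (3.13%) and an NF-kB motif (0.356%) had no match in the 3 windows. A match is a description of letters and not a site of binding.

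Globin transcripts of red blood cells were also lower in the RGFP109 library of each pair. Hbb-bs, an adult beta globin, was at 0.825 and 64.3 CPM with RGFP109 and at 7.11 and 230 CPM with vehicle (replicates 1 and 2 in turn). Hba-a1, an alpha globin, was at 0.634 and 49.4 CPM with RGFP109 and at 4.38 and 159 CPM with vehicle. Both pair 2 libraries were above both pair 1 libraries, and within each pair the vehicle library was the higher one. Blocked log2 fold changes were -2.28 ± 0.34 and -2.04 ± 0.31, with an adjusted p of 1 by edgeR. Both genes have near-identical copies, between which reads may be split.

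Of the other lower genes, several were highest in the library with the olfactory bulb markers. Ltbp2, a matrix protein, was at 25.5 CPM in vehicle replicate 1 and at 0.825, 1.31 and 3.98 CPM in RGFP109 replicates 1 and 2 and vehicle replicate 2. It was the only one of the 10 named lower genes whose pairs differed past the threshold (difference -3.34 ± 0.60, adjusted p = 0.0232, edgeR on 8 libraries). Cdh23, a cadherin of inner ear tip links, was at 3.81 and 1.13 CPM with RGFP109 and 15.3 and 3.06 CPM with vehicle. The water channel Aqp1 was at 12.4 and 1.27 CPM with RGFP109 and at 36.7 and 3.06 CPM with vehicle. Gng13, a G protein gamma subunit, was at 8.12 and 5.87 CPM with RGFP109 and at 24.3 and 13.1 CPM with vehicle. For Ltbp2, Gng13 and Dynlt1f, a dynein light chain of a multigene family, both RGFP109 libraries were below both vehicle libraries. The remaining 2-fold lower genes outside the naming rule were Traf1, Hpse and Mmp19 with log2 ratios of -1.03, -1.08 and -1.02 in pair 2, and 2 predicted genes.

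Fewer genes were higher in both pairs, and they were low in counts. Eif3j2, a copy of the translation factor subunit eIF3J that shares reads with Eif3j1, was at 4.25 and 5.02 CPM with RGFP109 and at 1.19 and 1.09 CPM with vehicle. Its 4 libraries had 67, 107, 21 and 20 counts, and the blocked log2 fold change was 2.01 ± 0.35 (adjusted p of 1, edgeR). Eif3j1 itself, named after its values were seen, was at 31.2 and 31.9 CPM with RGFP109 and at 42.9 and 38.6 CPM with vehicle. Rassf9 had log2 ratios of 1.32 and 1.10 and Pih1d2 of 1.06 and 1.18 in pairs 1 and 2. These 3 genes, selected for being higher in both pairs, had both RGFP109 libraries above both vehicle libraries, beside a share of all genes that was not counted. Under the 2-fold limit in 1 pair, Sarnp, an mRNA export factor, reached 1.18 and 0.94, and mt-Nd4l, a mitochondrially encoded subunit of respiratory complex I whose reading frame overlaps mt-Nd4, reached 0.77 and 1.15, beside 0.09 and 0.08 for mt-Nd4. Onecut2, a homeodomain transcription factor, was at 5.14 and 11.8 CPM with RGFP109 and at 0.739 and 6.38 CPM with vehicle, and the cilia gene Drc7 at 10.5 and 1.97 CPM against 0.569 and 1.09 CPM. The remaining named genes, Zfp973, Ifitm7 and Zfp459, had 62 counts or fewer in every library.

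**Figure D3:**
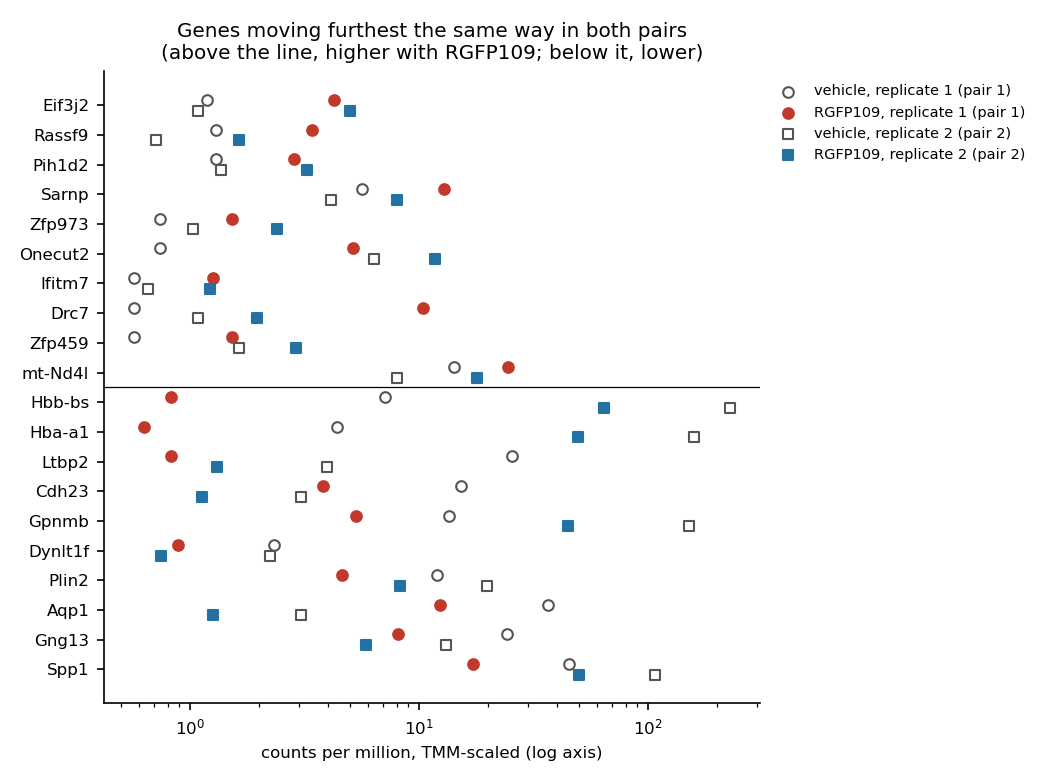
CPM (log axis) in the 4 libraries for the 10 genes with the largest smaller ratio in each direction, with circles for pair 1, squares for pair 2, filled symbols for RGFP109 and open ones for vehicle. Filled symbols lie to the right of the open symbol of the same shape above the line and to the left of it below, while the level itself differs between pairs, as for Gpnmb (13.6 and 151 CPM with vehicle).

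Genes moving apart by 2-fold or more in each pair numbered 19. Higher in pair 1 and lower in pair 2 were 12 (0.0757%), and lower in pair 1 and higher in pair 2 were 7 (0.0441%). Sumo2, a small ubiquitin-like modifier with several processed copies, was at 51.7 CPM with RGFP109 and 20.9 CPM with vehicle in pair 1, and at 11.0 and 71.8 CPM in pair 2. Lhx9, a LIM homeobox transcription factor, was at 16.2 CPM in RGFP109 replicate 1 and between 0.563 and 1.36 CPM in the other libraries. Zap70, a kinase of the T cell receptor, had log2 ratios of 1.27 and -1.24, Srp54b, a signal recognition particle subunit of a multigene family, of 1.89 and -1.09, and Dnaaf3, which assembles the dynein of cilia, of 1.40 and -1.29. Mfap4, a microfibril protein, Jph2, a junctophilin, and Cidea, a lipid droplet protein, were higher in pair 1 by 1.46, 1.31 and 1.16 and had -1.05, -1.06 and -1.03 in pair 2. In the opposite direction, Cubn, the scavenger receptor cubilin, had -1.50 and 1.197, Zfp804b -2.02 and 1.14, Lmntd1 -1.31 and 1.04, and the transglutaminase Tgm4 -1.06 and 1.17.

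The difference between the pairs was fitted over all 8 libraries, with the spread taken from the replicates of PTS + RS and RS (2 residual degrees of freedom, coefficient of variation 10.8%). RGFP109 over vehicle was higher in pair 1 than in pair 2 for 474 genes (2.99%) and lower for 426 (2.69%) at an adjusted p under 0.05 and a difference of 2-fold or more. At any size of difference, 1167 genes (7.36%) had an adjusted p under 0.05. Each arm is 1 library that is assumed to vary as those replicates do, and treatment and region cannot be told apart in pair 1, so these calls compare single libraries and are no test of a difference in the effect of RGFP109. Of the 900 genes, 889 had a log2 ratio under 1 in size in pair 2. Among the 19 genes 2-fold apart, the difference was 5.82 ± 0.57 for Lhx9, 2.65 ± 0.58 for Mfap4, -2.89 ± 0.67 for Cubn and 4.01 ± 1.21 for Sumo2. These 19 genes were selected for opposite ratios of 2-fold or more in the same libraries. Their large differences follow from that choice and are no separate support. Without PTS + RS replicate 1 the counts were 884 and 834, without PTS + RS replicate 2 they were 873 and 835, without RS replicate 1 they were 305 and 261, and without RS replicate 2 they were 307 and 263. In the same fit, which was added after the data were seen, pair 1 alone gave 721 genes higher and 649 lower, and pair 2 alone gave 0 and 0 with a smallest adjusted p of 0.236. At an unadjusted p under 0.05, pair 2 gave 337 higher and 414 lower.

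The histone deacetylases themselves were close to level. Hdac3, a target of the inhibitor, was at 89.9 and 75.2 CPM in RGFP109 replicates 1 and 2 and at 79.7 and 78.2 CPM in vehicle replicates 1 and 2, and its groups overlap. Its blocked log2 fold change was 0.06 ± 0.18 (adjusted p of 1, edgeR). The transcript of an enzyme is no measure of its activity, so this checks no label. Hdac1, the other stated target of RGFP109, and Hdac2 had blocked log2 fold changes of -0.02 ± 0.20 and -0.15 ± 0.18. Of 18 class I enzymes and corepressor partners, all tested, none passed, 2 were higher and 6 lower in both pairs, and 10 moved apart. Their median blocked log2 fold change was -0.04, beside -0.01 over all genes tested. Beside this list and those below, 23% of all genes tested were higher in both pairs, 25.2% lower in both and 51.8% moved apart. Ncor1, a corepressor that holds HDAC3, had log2 ratios of -0.05 in pair 1 and 0.20 in pair 2. The highest of the list were the corepressor subunit Tbl1xr1 (0.41 ± 0.19) and the NuRD subunit Mta3 (0.38 ± 0.22), and the lowest were Gps2 (-0.50 ± 0.24) and Tbl1x (-0.35 ± 0.25).

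Among the 11 other deacetylases, 5 were lower in both pairs (all genes tested: 25.2%), 6 moved apart (51.8%) and none was higher in both (23%). Hdac5, a class IIa enzyme of neurons, was at 209 and 172 CPM with RGFP109 and at 334 and 197 CPM with vehicle. Hdac9 was at 105 CPM in vehicle replicate 1 and at 42.8 to 47.5 CPM in the others, and its pairs differed by -1.17 ± 0.26 (adjusted p = 0.0456, edgeR on 8 libraries). Of 9 lysine acetyltransferases, 7 were lower in pair 1 (all genes tested: 51.8%) and 7 were higher in pair 2 (all genes tested: 7857 of 15860). Kat6b and Kat2b differed between the pairs past the threshold, by -1.33 ± 0.15 (adjusted p = 0.00662) and -1.37 ± 0.26 (adjusted p = 0.0272). Crebbp, the CREB-binding protein, was at 121 and 102 CPM with RGFP109 and at 149 and 63.9 CPM with vehicle.

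The prostaglandin pathway, which the study followed, showed no common direction. Prostaglandin E2 is made from arachidonic acid by the cyclooxygenases Ptgs1 and Ptgs2 and the terminal synthases, and acts through the receptors EP1 to EP4. Of 16 synthesis genes, all tested, 3 were higher and 4 lower in both pairs and 9 moved apart, with a median log2 fold change of 0.01. Ptgs1 (Cox1) was at 14.2 and 16.1 CPM with RGFP109 and at 10.01 and 16.6 CPM with vehicle. Ptgs2 (Cox2) was at 19.4 and 25.9 CPM with RGFP109 and at 5.17 and 20.9 CPM with vehicle, so 1 control library, with the olfactory bulb markers, was low. Its blocked log2 fold change was 1.08 ± 0.44 (adjusted p of 1), its log2 ratio in pair 2 was 0.30, and the pairs differed by 1.60 ± 0.29 (adjusted p = 0.0243, edgeR on 8 libraries). Ptges, the inducible E synthase, was at 4.38 and 5.35 CPM with RGFP109 and at 6.99 and 6.60 CPM with vehicle, with both RGFP109 libraries below both vehicle libraries (-0.49 ± 0.30, adjusted p of 1).

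Of 9 prostanoid receptors, 5 were tested, and 1 of them was higher in both pairs and 4 moved apart. Ptger1 (EP1) had log2 ratios of 1.22 and 0.25 and Ptger4 (EP4) of 0.64 and -0.61 in pairs 1 and 2. For Ptger2 (EP2), the receptor that the study knocked down, 24 and 11 counts with vehicle stood beside 3 and 6 counts with RGFP109, and both RGFP109 libraries were below both vehicle libraries. At these counts the gene was not tested. Of 6 genes of prostanoid breakdown and transport, 3 were higher and 1 lower in both pairs, and Slco2a1, the prostaglandin transporter, was at 7.61 and 4.08 CPM with RGFP109 and at 2.39 and 3.55 CPM with vehicle.

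Among NF-kB subunits, Rela, Nfkb1 and Nfkb2 were near level in both pairs, whereas Rel and Relb were not in pair 1. Rela (p65) had a blocked log2 fold change of -0.10 ± 0.20 and Nfkb1 of -0.10 ± 0.20, each with an adjusted p of 1. Of 14 listed subunits and inhibitors, 13 were tested, 2 were higher and 6 lower in both pairs and 5 moved apart, with a median of -0.07. Tnfaip3, the A20 brake on NF-kB signalling, was at 7.68 and 8.64 CPM with RGFP109 and at 3.87 and 5.18 CPM with vehicle, with no overlap between the groups (0.86 ± 0.29, adjusted p of 1). Rel was at 4.76 and 7.18 CPM with RGFP109 and at 8.47 and 9.06 CPM with vehicle, and Relb had log2 ratios of 1.03 and -0.12.

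Inflammatory cytokines were at the floor of the libraries. Tnf had 0 and 4 counts with RGFP109 and 3 and 1 with vehicle, Il1b 0 and 3 against 0 and 12, Il6 0 and 5 against 2 and 1, and Ccl2 0 and 5 against 8 and 8. A difference in these genes was not detectable at this depth. Of 20 listed cytokines and chemokines, 9 were tested, with 2 higher and 4 lower in both pairs. Il33, an alarmin of astrocytes and oligodendrocytes, had 0.28 and 0.27 in pairs 1 and 2, and the chemokines Cxcl12 and Cxcl16 had -0.09 and -0.30 in pair 1 and -0.49 and -0.65 in pair 2. Tgfb2 was at 58.0 CPM in RGFP109 replicate 1 and at 10.3 to 14.3 CPM elsewhere. In the inflammasome list (8 of 11 tested) 1 gene was higher and 2 lower in both pairs. Casp1, which cleaves interleukin 1 beta, was at 2.92 and 2.07 CPM with RGFP109 and at 8.64 and 3.0 CPM with vehicle, and Nlrp3 had log2 ratios of 1.11 and -0.01.

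Most antigen presentation genes were lower with RGFP109 in both pairs. Of 17 listed genes, all tested, 13 (all genes tested: 25.2%) were lower in both pairs and none was higher in both, with a median log2 fold change of -0.36 beside -0.01 over all genes tested. None passed the blocked test. MHC class II transcripts, which activated microglia and infiltrating phagocytes carry, had the largest ratios of the list in pair 2, whereas in pair 1 this held for H2-Eb1 and not for H2-Ab1, H2-Aa or Cd74. H2-Ab1 was at 3.24 and 3.57 CPM with RGFP109 and at 4.49 and 15.6 CPM with vehicle, and H2-Eb1 at 2.47 and 4.41 CPM against 4.72 and 13.04 CPM. Both RGFP109 libraries were below both vehicle libraries for these genes, and their log2 ratios in pair 2 were -2.10 and -1.54. Of the same list, and chosen after their values were seen, H2-Aa and Cd74 (the invariant chain) had -1.41 and -1.34 in pair 2 and -0.29 and -0.60 in pair 1. The class I heavy chains H2-K1 and H2-D1, chosen likewise, had -0.44 and -0.51 in pair 1 and -0.39 and -0.59 in pair 2. The highest of the list were the protease Ctss, with 0.44 and -0.36, and the peptide loading factor Tapbp, with -0.13 and 0.04. Reads of H2 genes may be split among family members.

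Most disease-associated microglia genes, a set that microglia take up around lesions, were lower in pair 2. Of 20 listed genes, 17 were tested, 10 were lower in both pairs (all genes tested: 25.2%), 1 was higher in both and 6 moved apart. The 3 not tested had under 10 counts in RGFP109 replicate 1. In pair 2, Cst7 was at 4.79 CPM with RGFP109 and 3.16 CPM with vehicle, Itgax at 4.04 and 4.31 CPM and Clec7a at 7.23 and 10.5 CPM. The median log2 ratio of the 17 was -0.15 in pair 1 and -0.45 in pair 2, beside -0.019 and -0.003 over all genes tested. In pair 2, 16 of the 17 were lower (all genes tested: 50.5%). In the same pair the shortest class of genes had a median of -0.13 and ribosomal protein genes one of -0.24, and their part in this was not tested. Besides Gpnmb and Spp1, Lyz2, the lysozyme of myeloid cells, was at 83.9 CPM with RGFP109 and 352 CPM with vehicle in pair 2, and at 14.5 and 15.8 CPM in pair 1. Lgals3 (galectin 3) was at 6.43 and 32.0 CPM in pair 2 and at 1.46 and 0.796 CPM in pair 1, and its pairs differed by 3.18 ± 0.45 (adjusted p = 0.0119, edgeR on 8 libraries). Apoe, a lipid carrier, had log2 ratios of -0.25 and -0.72. These 3 genes were chosen after their values were seen. In pair 1 the widest members were Lpl, a lipase, at 32.0 CPM with RGFP109 and 2.39 CPM with vehicle, and Igf1 at 8.37 and 44.0 CPM. In pair 2 they were at 27.9 and 38.1 CPM and at 12.4 and 16.9 CPM. Fth1, the ferritin heavy chain, was at 1188 and 1110 CPM with RGFP109 and at 608 and 1334 CPM with vehicle.

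General markers of microglia were mostly higher in pair 1 and went both ways in pair 2. Of 20 markers, all tested, 18 were higher in pair 1 (all genes tested: 7650 of 15860), with a median log2 ratio of 0.35. In pair 2, 11 were lower (all genes tested: 50.5%), with a median of -0.02. Of the 20 markers, 7 were higher in both pairs (all genes tested: 23%) and none was lower in both. Their sums were 564.5 and 802.4 CPM with RGFP109 against 632.7 and 901.2 CPM with vehicle. The pair 1 sum turned on Sall1, a transcription factor, at 28.2 CPM with RGFP109 and 208.3 CPM in the library with the olfactory bulb markers. Without it the sums were 536.3 and 774.4 CPM with RGFP109 against 424.4 and 877.4 CPM with vehicle, an alternative added after the data were seen. Within the complement list (13 of 16 tested) 12 genes were lower in pair 2 (all genes tested: 50.5%), with a median of -0.44. In pair 1, 8 of them were higher (all genes tested: 7650 of 15860), with a median of 0.15. C1qa, of the initiator C1q, was at 37.2 and 91.9 CPM with RGFP109 and at 33.0 and 118 CPM with vehicle. The lysosomal protein Cd68 was at 8.94 and 17.7 CPM with RGFP109 and at 6.37 and 27.0 CPM with vehicle. Serping1, the C1 inhibitor, was lower in both pairs (-0.61 and -0.78), C1s1 had -0.06 and -0.90, C4b 0.04 and 0.07 and Itgam 0.17 and -0.01.

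Red blood cell and meningeal fibroblast markers were lower with RGFP109 in pair 2, as were most antigen presentation, complement and disease-associated microglia genes. Most interferon-stimulated genes were higher there. The 5 red blood cell genes summed to 127.4 CPM with RGFP109 and 439.5 CPM with vehicle in pair 2, and to 1.65 and 12.9 CPM in pair 1. The 12 meningeal fibroblast genes summed to 258.5 and 414.4 CPM in pair 2, with Col1a1, a collagen, at 35.5 and 66.2 CPM, and to 236.5 and 297.6 CPM in pair 1. Without Islr, which was at 20.8 CPM with RGFP109 and 102.7 CPM with vehicle in pair 1, the pair 1 sums were 215.7 and 195.0 CPM and those of pair 2 227.3 and 381.3 CPM, also added after the data were seen. Of these 12 genes, 10 were lower in pair 2 (all genes tested: 50.5%) and 4 lower in both pairs (all genes tested: 25.2%). Neutrophil and lymphocyte markers were at or near 0 in every library except Cd4, which was at 11.7 and 10.5 CPM in pair 2 and under 1 CPM in pair 1. The part of blood, of meninges or of the amount of lesion in the sample in the lower phagocyte genes was not tested.

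Markers of the other brain cells were nearer to level in pair 2. Summed over 12 genes each, astrocyte markers were at 6157.2 CPM with RGFP109 and 5261.3 CPM with vehicle in pair 2, oligodendrocyte markers at 4712.1 and 5212.8 CPM, neuronal markers at 8849.5 and 8491.9 CPM and endothelial markers at 515.9 and 531.6 CPM. The 8 genes of oligodendrocyte precursors summed to 391.7 and 432.7 CPM, the 9 of pericytes and smooth muscle to 218.0 and 210.3 CPM, and the 10 of ependymal cells to 17.51 and 23.13 CPM. Median log2 ratios in pair 2 were 0.08 for astrocytes, -0.10 for oligodendrocytes and 0.04 for neurons. No gene of these lists passed the blocked test.

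Interferon-stimulated genes moved apart. Of 30 listed genes, 26 were tested. All 26 were lower in pair 1 (all genes tested: 51.8%) and 21 of them were higher in pair 2, with median log2 ratios of -0.63 and 0.28. Over all genes tested, 4210 of 15860 were lower in pair 1 and higher in pair 2, as these 21 were. No gene of the list passed the test of the difference. Ifit1 was at 2.35 and 4.04 CPM with RGFP109 and at 7.05 and 3.27 CPM with vehicle. Irf7, which drives interferon production, was lower in both pairs (-0.94 and -0.25), and Oas2 and the RNA sensor Ddx58 had -0.17 and -0.45 in pair 1 and 0.51 and 0.65 in pair 2.

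**Figure D4:**
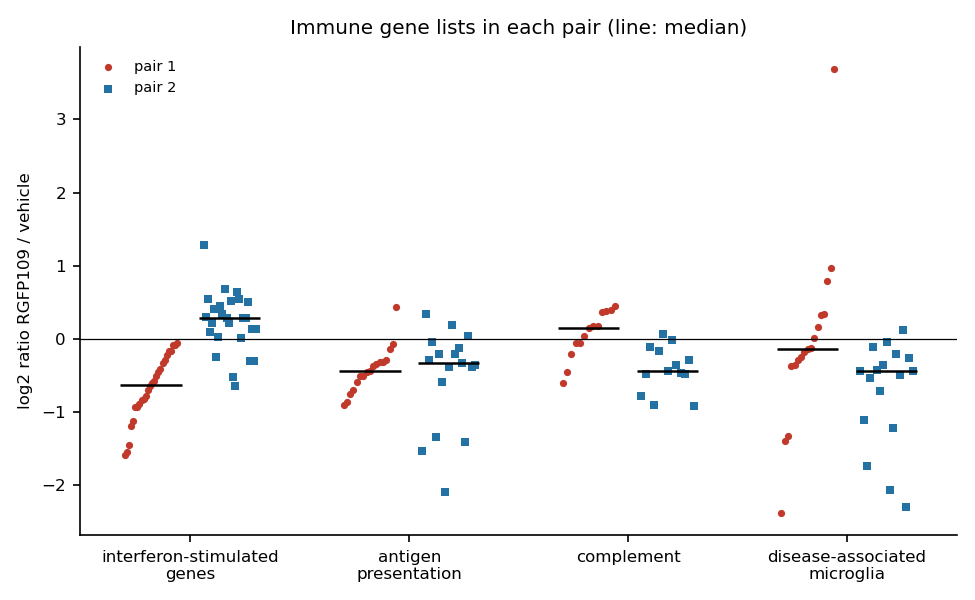
Log2 ratio of RGFP109 over vehicle for each tested gene (circles for pair 1, squares for pair 2, line at the median) of 4 immune lists, ordered within a list by the ratio in pair 1. Most antigen presentation genes lie below 0 in both pairs (medians -0.44 and -0.33), while interferon-stimulated genes lie below 0 in pair 1 (-0.63) and mostly above it in pair 2 (0.28).

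Genes that PTS + RS raised were also followed. In the other 4 libraries, which share no sample with this comparison, 371 of 17717 genes (2.09%) were higher in PTS + RS than in RS and 16 (0.0903%) were lower by edgeR. Of the 371, 303 were tested here. In pair 2, 196 of the 303 (all genes tested: 50.5%) were lower with RGFP109 and the median log2 ratio was -0.165. In pair 1, 147 (all genes tested: 51.8%) were lower and the median was 0.015. Both pairs were lower for 97 genes and both higher for 57, beside 25.2% and 23% of all genes tested. Of the 16 genes lowered in PTS + RS, 12 were tested, all 12 were lower with RGFP109 in pair 2, and 4 were lower in pair 1.

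Synaptic genes were higher in pair 1 and near level in pair 2. Of 19 postsynaptic genes, all tested, 12 were higher in both pairs (all genes tested: 23%) and 1 was lower in both, with medians of 0.45 in pair 1 and 0.07 in pair 2. Dlg4, which encodes the scaffold PSD95, was at 833 and 751 CPM with RGFP109 and at 611 and 742 CPM with vehicle (0.23 ± 0.25, adjusted p of 1, edgeR). Camk2a, the kinase of excitatory synapses, was at 3898 and 2986 CPM with RGFP109 and at 1248 and 2871 CPM with vehicle, and its pairs differed by 1.59 ± 0.33 (adjusted p = 0.0355). Grin2a, an NMDA receptor subunit, had log2 ratios of 1.44 and 0.33, and the lowest of the list, Homer1, had -0.20 and -0.09. Of 18 presynaptic genes 6 were higher in both pairs and 11 moved apart, with medians of 0.48 and 0.01. Cplx2 and Syt2 had 1.70 and 1.57 in pair 1 and -0.02 and -0.08 in pair 2. The low level of excitatory markers in vehicle replicate 1 moved with these ratios, and its part in them was not tested.

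Transcripts of Akt, mTOR and GSK3 signalling, which the study examined in proteins and their phosphorylated forms, mostly had small blocked changes. RNA levels are no measure of signalling, so nothing is read from them about it. Of 17 listed genes, 4 were higher and 2 lower in both pairs and 11 moved apart, with a median log2 fold change of 0.03. Akt1 had a blocked log2 fold change of -0.03 ± 0.19, Rictor of 0.14 ± 0.19, Gsk3a of 0.09 ± 0.23 and Gsk3b of 0.14 ± 0.21, each with an adjusted p of 1. Mtor was at 166 and 152 CPM with RGFP109 and at 243 and 133 CPM with vehicle, and the pairs differed by -0.74 ± 0.16 (adjusted p = 0.0433), which is under 2-fold. Deptor, an mTOR inhibitor, had the lowest log2 fold change of the list, at 21.95 and 39.7 CPM with RGFP109 against 74.9 and 36.8 CPM.

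Immediate early genes, which mark recent neuronal activity, moved apart in 13 of 23 cases, beside 51.8% of all genes tested. Fos was at 18.8 and 45.8 CPM with RGFP109 and at 75.3 and 33.7 CPM with vehicle, so that it was lower in pair 1 and higher in pair 2 (difference -2.45 ± 0.22, adjusted p = 0.00325, edgeR on 8 libraries). Nptx2 was lower in both pairs (-1.75 and -0.34), and the orphan receptors Nr4a2 and Nr4a3 had 1.27 and 1.61 in pair 1 and 0.37 and 0.03 in pair 2. Of 15 tested glucocorticoid-responsive genes, 5 were higher and 2 lower in both pairs, with Nr3c2, the mineralocorticoid receptor, at 1.52 and 0.27, Zbtb16 at 1.32 and 0.18, Fkbp4 at -0.20 in both and the cell cycle inhibitor Cdkn1a at -3.21 and -0.65. Of 16 circadian clock genes, 6 were higher in both pairs and 1 lower, with Hlf at 0.36 and 0.38 and Cry1 at -1.03 and -0.25. In the neuropeptide list (14 of 18 tested) 7 genes were lower in both pairs (all genes tested: 25.2%) and 1 higher (all genes tested: 23%). Penk, Nxph4 and Sst had ratios of -2.96, -3.20 and 2.13 in pair 1 and of -0.08, -0.53 and -0.51 in pair 2.

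**Figure D5:**
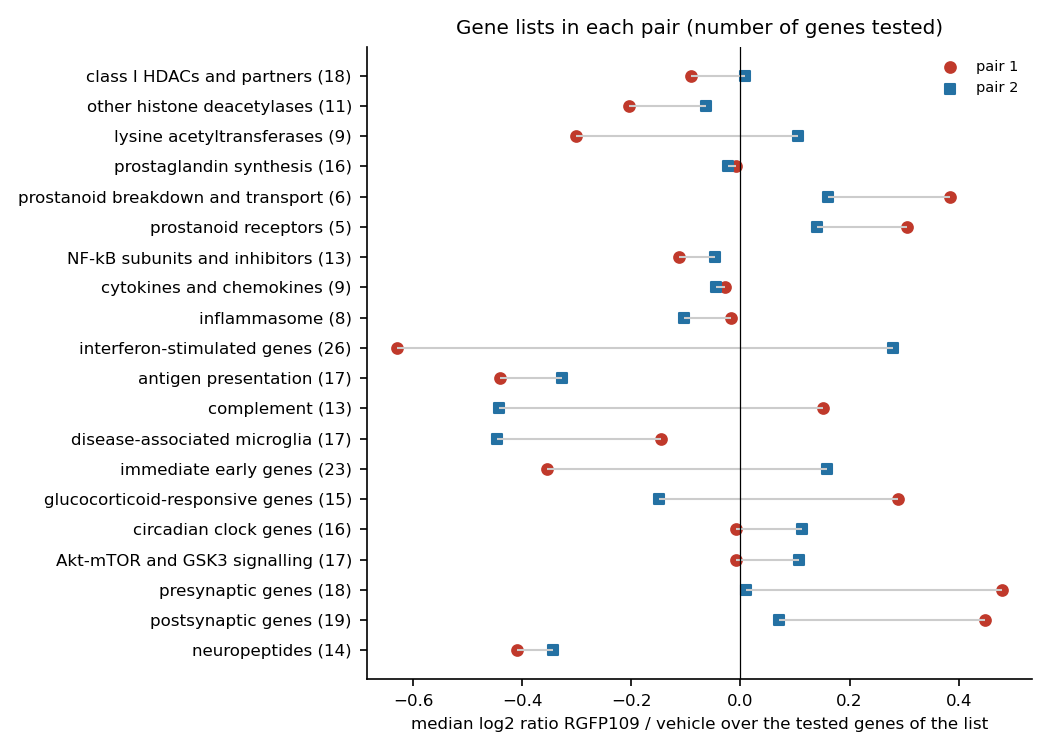
Median log2 ratio of RGFP109 over vehicle in pair 1 (circles) and pair 2 (squares) over the tested genes of 20 lists, with the number tested in brackets. Antigen presentation (-0.44 and -0.33) and neuropeptides (-0.41 and -0.34) lie below 0 in both pairs, whereas interferon-stimulated genes (-0.63 and 0.28) and complement genes (0.15 and -0.44) lie on opposite sides of it.

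Ratios in pair 2 also moved with gene length. Genes were sorted into 5 classes by the deposited length, chosen after the ratios were seen. The shortest class, with a median length of 1445.5 bases, had a median log2 ratio of -0.13 in pair 2, and the longest, with a median of 9606.5 bases, had 0.11. In pair 1 the corresponding medians were 0.01 and -0.07. Across genes, length and ratio correlated at 0.301 (Spearman) in pair 2 and at -0.048 in pair 1, as a description over 15860 genes of the same libraries. A list of cytosolic ribosomal proteins, with 78 genes tested, was added after the values were seen. Of these, 70 were lower with RGFP109 in pair 2 (all genes tested: 50.5%) and 39 in pair 1 (all genes tested: 51.8%). Their medians were -0.24 and 0.01. Whether RNA quality or fragment size differed between the libraries of pair 2 was not tested.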

How the data were processed

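RNA-seq of 4 libraries was used. The authors aligned reads with STAR 2.4.0 and counted them per gene with HTSeq 0.6.1 (versions per the submitters' processing notes) against GRCm38, and the deposited counts are raw whole numbers. The deposited normalized signal of a block of 38 genes is the authors' scaling of such counts, and the deposited gene length (other unit, bases) is theirs. The labels and the study name different library kits. Columns of the authors' own fold changes and p-values were not used. Genes of the RGFP109 table were matched to Ensembl identifiers by position (28229 of 28229).

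Genes with 10 or more counts in every library were fitted in R 4.3.3 with edgeR 4.0.16 (TMM factors, quasi-likelihood test, replicate number as a block, Benjamini-Hochberg adjustment over all genes). A gene was past the threshold where its adjusted p was under 0.05 and its change 2-fold or more. Pair ratios are log2 differences of TMM-scaled CPM with a prior count of 2. The difference between the pairs was fitted on 8 libraries, where each RGFP109 or vehicle library has its own mean and is assumed to vary as the replicates of PTS + RS and RS do. limma 3.58.1 and DESeq2 1.42.0 gave alternatives, which also included other scalings, filters, prior counts and leaving out each library. Scripts were tested on simulated data, which for the blocked fit had less spread than the libraries and equal changes in both pairs. That checks the code and is no measure of what the fits can detect here. The labels number the replicates by tissue, and the deviations of same-numbered libraries from their group means correlated at 0.25 over genes.

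Named genes were the 10 with the largest smaller ratio the same way in each direction, up to 8 in each direction of those 2-fold apart, up to 4 of each list by log2 fold change, and genes the study names. Predicted genes and pseudogenes were counted only, and some genes that the rule names are not reported here. Members, lists and genes were chosen with earlier results of these data known. With 2 libraries a group, no permutation test of a single gene could pass 0.05.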

Additional observations from a re-analysis of the deposited data

Results flagged for a closer look

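Genes whose ratio of RGFP109 over vehicle differed between the pairs were marked for a closer look, by the fit over all 8 libraries at an adjusted p under 0.05 (edgeR). Each arm is 1 library with a spread borrowed from PTS + RS and RS, and treatment and region cannot be told apart in pair 1, so the values are differences between single libraries and not in the effect of RGFP109. Of 131 tested genes named in the text, 34 met this, 17 lower in pair 1 than in pair 2 and 17 higher, beside 7.36% of all genes tested. The named genes were partly chosen for large or opposite ratios, so nothing is read from their count. No explanation was weighed, and no group had enough libraries for an outlier test. The values are the log2 ratio in pair 1 minus that in pair 2.

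Brain region and neuronal genes made up a part of them. Cdhr1 differed by -5.26, Gad1 by -2.42, Prox1 by 3.04, Fezf2 by 3.87, Rspo2 by 4.01, Lhx9 by 5.82, Meis2 by -3.30 and Cyp26b1 by 1.68. Sall1 differed by -3.12 and Islr by -2.21. Among neuropeptides and synaptic genes, Penk differed by -2.89, Nxph4 by -2.70, Sst by 2.64, Camk2a by 1.59, Syt2 by 1.66 and Cplx2 by 1.72. Activity and hormone genes were Fos at -2.45, Nr4a3 at 1.58, Nr3c2 at 1.25 and Cdkn1a at -2.57.

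Enzymes of acetylation were Hdac9 at -1.17, Kat2b at -1.37, Kat6b at -1.33 and Crebbp at -0.98, and Mtor was at -0.74. Among genes of inflammation and matrix, Ptgs2 was at 1.60, Tgfb2 at 2.02, Lpl at 4.19, Lgals3 at 3.18, Fth1 at 1.23, Igf1 at -1.95, Ltbp2 at -3.34, Mfap4 at 2.65 and Cubn at -2.89. In Lgals3 the pair 2 ratio (-2.30) was the larger in size, whereas in Fos (-2.00 and 0.44) and Lpl (3.69 and -0.45) it was that of pair 1.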

How the results depend on the processing

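With the replicate block 0 genes were higher and 0 lower, and with no replicate block the counts were also 0 and 0. Most other alternatives in the 4 libraries gave 0 in each direction, except that DESeq2 gave 4 lower (Hbb-bs, Hba-a1, Ltbp2 and Gpnmb) and no filter gave 4 lower (S100a5, Ms4a15, Gdpd4 and Foxd3, each with counts almost only in vehicle replicate 1). Leaving out 1 library at a time without the block gave 0 higher and 0 to 26 lower, the 26 without vehicle replicate 2, where the lone vehicle library is assumed to vary like the others. Alternatives added after the data were seen took the spread from 8 libraries and gave 162 higher and 189 lower for the average of the pairs, and 721 and 649 for pair 1 alone.

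The counts of genes 2-fold the same way, 3 higher and 15 lower, and apart, 12 and 7, depended on low counts. With a prior count of 0.5 there were 7 higher in both. With a prior count of 5 there were 1 higher in both, and 5 and 4 apart. With 30 or more counts in every library they were 0, 5, 3 and 1, with a mean count of 10 or more 31, 67, 45 and 51, and with log2 ratios of 0.5 or more 131, 188, 137 and 158, in the same order. The difference between the pairs ranged from 305 to 884 genes above and from 261 to 835 below when 1 library of PTS + RS or RS was left out.

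Of 2079 values of named genes under alternatives, 137 lay on the other side of 0 from their main value and 8 passed the threshold. Of 418 list medians under alternatives, 97 moved by more than the spread between the pairs. Depth limited Ptger2 and the cytokines Tnf, Il1b, Il6 and Ccl2, which had 24 counts or fewer in every library. The design has 2 libraries a group and 1 residual degree of freedom, and in pair 1 treatment and region markers cannot be told apart.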

Other observations

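Genes left out by the count limit were also looked at. Of the 12369, 21 had 100 or more counts in 1 library and under 10 in each of the other 3, and 18 of these were high in vehicle replicate 1 and 3 in RGFP109 replicate 1. Omp, the olfactory marker protein, had 2040 counts in vehicle replicate 1 and 4 to 7 in the others, and Eomes, a transcription factor of mitral and tufted cells, had 2145 against 2 to 5. In RGFP109 replicate 1, Slc4a5, a bicarbonate transporter of choroid plexus, had 220 counts against 0 to 4, and Kcne2, a potassium channel subunit there, had 129 against 2 to 7. No gene was of this kind in either library of pair 2.

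The deposited block of normalized signal for 38 genes repeats 1 control. Both vehicle columns hold equal values for all 38 genes. For the 30 genes found by symbol in the count columns, the signal per count was constant in RGFP109 replicate 1 (1.153), RGFP109 replicate 2 (0.851) and vehicle replicate 1 (1.023), but ranged from 0.062 to 2.115 when the second vehicle column was divided by the counts of vehicle replicate 2. The second vehicle column of the block therefore holds the values of vehicle replicate 1, and the block was not used for any comparison.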
